A study of Mus musculus with 90 samples.

Results

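Two-cell stage genes are switched on in the mouse embryo at the two-cell stage and again in a small, changing share of embryonic stem cells (ESCs). Peaks of the histone mark H3K9me3 and of the proteins Trim28 and Uhrf1 were examined at a list of 7 such genes: Zscan4c, Zscan4d, Zscan4f, Pramel6, Pramel7, Tcstv1 and Tcstv3. The genes were chosen by name and not by a rule on their values, though with earlier results of these data known. The GENCODE vM1 annotation of the mm9 genome holds 5 of the 7 symbols, among its 22367 protein-coding genes. Tcstv1 and Tcstv3 are absent from it by symbol and were dropped, which left 3 Zscan4 genes on chromosome 7 and 2 Pramel genes on chromosome 2. A window of 20 kb on either side of each gene body was searched in 24 peak lists, and the distance to the nearest region that gained methylation was measured.

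The ESCs came from 3 lines with 2 replicates each per mark. WT cells were of the V65 strain. TKOL cells were J1 cells with a knockout of Dnmt3a and Dnmt3b that also carried a short-hairpin RNA against Dnmt1, and descend from 1 clone. DKO0 cells had the same Dnmt3a and Dnmt3b knockout after the hairpin had been removed with Cre, so that Dnmt1 was expressed again. H3K9me3 and Trim28 were mapped by ChIP-seq in these cells, and Uhrf1 by ChIPmentation in derivatives of all 3 lines that carry a FLAG tag on Uhrf1. WT differed from TKOL and DKO0 in strain as well as in genotype, so the effect of strain and that of genotype cannot be told apart. There were 18 lists from single replicates and 6 lists from replicates pooled on read level, the latter for TKOL and DKO0 only. Nothing in the labels states that replicates came from separate cultures, so p-values measure only the spread between these samples. The single-replicate lists held 25953 to 63579 peaks of H3K9me3, 15995 to 31921 of Trim28 and 11440 to 49156 of Uhrf1. All lines were grown on a layer of mouse fibroblast feeder cells, and the share of feeder chromatin in the samples was not analysed here. The lists carry no read counts, so the depth behind a peak or behind the lack of one is unknown.

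Zscan4 genes encode zinc finger proteins with a SCAN domain that act in telomere maintenance and genome stability of ESCs, and are the usual markers of two-cell-like cells. Pramel6 and Pramel7 encode leucine-rich repeat proteins that oppose ESC differentiation, and Pramel7 promotes the degradation of Uhrf1 protein. Trim28 is a corepressor that KRAB zinc finger proteins bring to DNA, chiefly to retrotransposons, where it recruits the enzyme that writes H3K9me3. Uhrf1 binds hemimethylated CpGs and H3K9me3 and directs Dnmt1 to them. In two-cell-like cells, long terminal repeats of endogenous retroviruses serve as promoters of many genes. The peak lists do not measure transcription, so whether the genes were expressed in these cultures was not analysed here.

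Positions that peaks of the largest number of lists share at Zscan4c, Zscan4f and the Pramel genes, and the starts of the Zscan4 genes, are shown because the results below turn on their sequence. Letters are from mm9, 5′ to 3′, and capitals mark CpGs, the sites that Dnmt1 methylates.
Zscan4c, 6 lists (chr7:11607681-11607845, plus strand): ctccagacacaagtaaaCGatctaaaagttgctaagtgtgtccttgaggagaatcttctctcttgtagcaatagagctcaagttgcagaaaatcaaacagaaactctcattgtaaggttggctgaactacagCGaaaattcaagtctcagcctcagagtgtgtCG
Zscan4c, H3K9me3, Trim28 and Uhrf1 in pooled DKO0 (chr7:11608637-11608758, plus strand): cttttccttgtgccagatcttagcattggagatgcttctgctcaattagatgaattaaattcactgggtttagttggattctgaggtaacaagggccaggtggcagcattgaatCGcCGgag
Zscan4f, Trim28 in TKOL (chr7:11984126-11984211, plus strand): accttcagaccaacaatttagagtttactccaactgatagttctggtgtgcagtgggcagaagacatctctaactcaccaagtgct
Zscan4f, 3 lists (chr7:12006976-12007083, plus strand): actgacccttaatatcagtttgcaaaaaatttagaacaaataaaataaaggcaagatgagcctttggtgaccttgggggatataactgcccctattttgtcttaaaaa
Pramel6 and Pramel7, 2 lists (chr2:87354015-87354208, plus strand): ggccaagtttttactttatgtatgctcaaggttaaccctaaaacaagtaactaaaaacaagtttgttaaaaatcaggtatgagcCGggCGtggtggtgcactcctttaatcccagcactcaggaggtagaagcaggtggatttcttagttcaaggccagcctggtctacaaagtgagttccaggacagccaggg
Zscan4c, 100 bases before the gene start (chr7:11590971-11591070, plus strand): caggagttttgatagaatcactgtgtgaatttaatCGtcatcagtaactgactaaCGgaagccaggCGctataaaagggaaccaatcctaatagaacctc
Zscan4d, 100 bases before the gene start (chr7:11751498-11751597, minus strand): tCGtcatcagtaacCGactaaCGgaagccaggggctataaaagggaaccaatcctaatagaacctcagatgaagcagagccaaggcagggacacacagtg
Zscan4f, 100 bases before the gene start (chr7:11983164-11983263, plus strand): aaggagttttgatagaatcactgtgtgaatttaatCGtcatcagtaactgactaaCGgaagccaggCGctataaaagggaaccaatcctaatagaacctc

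The stretches under peaks hold 0 to 3 CpGs each. The 6-list stretch at Zscan4c has 3 CpGs in 165 bases, or 1.82 per 100 bases, and both peak stretches shown for Zscan4f have 0. The 100 bases before each Zscan4 start have 3, or 3.00 per 100. The whole windows have 0.529 to 0.700 CpGs per 100 bases, and the mm9 genome has 0.829. The 100 bases before the starts of Zscan4c and Zscan4f matched at 99 of 100 positions. Those before Zscan4d matched either of them at 26 of 100 positions as they stand, and at 98.0% over 100 bases when aligned to the Zscan4f window, because its annotated start lies further along the same sequence.

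All 5 genes are short and lie close to their relatives. Zscan4c (ENSMUSG00000054272.4) lies at chr7:11591071-11595896 on the plus strand, Zscan4d (ENSMUSG00000090714.1) at chr7:11746992-11751497 on the minus strand and Zscan4f (ENSMUSG00000070828.3) at chr7:11983264-11988090 on the plus strand. Between these genes lie 151 and 232 kb, so their windows do not overlap. Pramel7 (ENSMUSG00000025839.3) at chr2:87329244-87337250 on the minus strand and Pramel6 (ENSMUSG00000025838.6) at chr2:87346722-87351029 on the plus strand are 9.47 kb apart, and their windows share 30.5 kb. A peak in that stretch therefore counts for both Pramel genes, which are not independent of each other. The windows together cover 196 kb when each base is counted once.

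Over the 24 lists, 81 peaks fell in the 5 windows, 19 in single-replicate lists and 62 in pooled lists. None of them ranked among the strongest of its list. Fold enrichment, the signal of a peak over its background as MACS2 reports it, ran from 2.23 to 4.89 with a median of 2.84, and between 3.71% and 82.5% of the peaks of the same list had a lower value. The -log10 q-value, a measure of how far a peak exceeds its background after correction, reached at most 4.39. No gene of the 5 had a peak whose -log10 q-value reached 5 in any list, against 38.8% of all protein-coding genes. In contrast, all 5 had some peak in at least 1 of the 24 lists, as did 96.1% of all protein-coding genes.

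**Figure D1:**
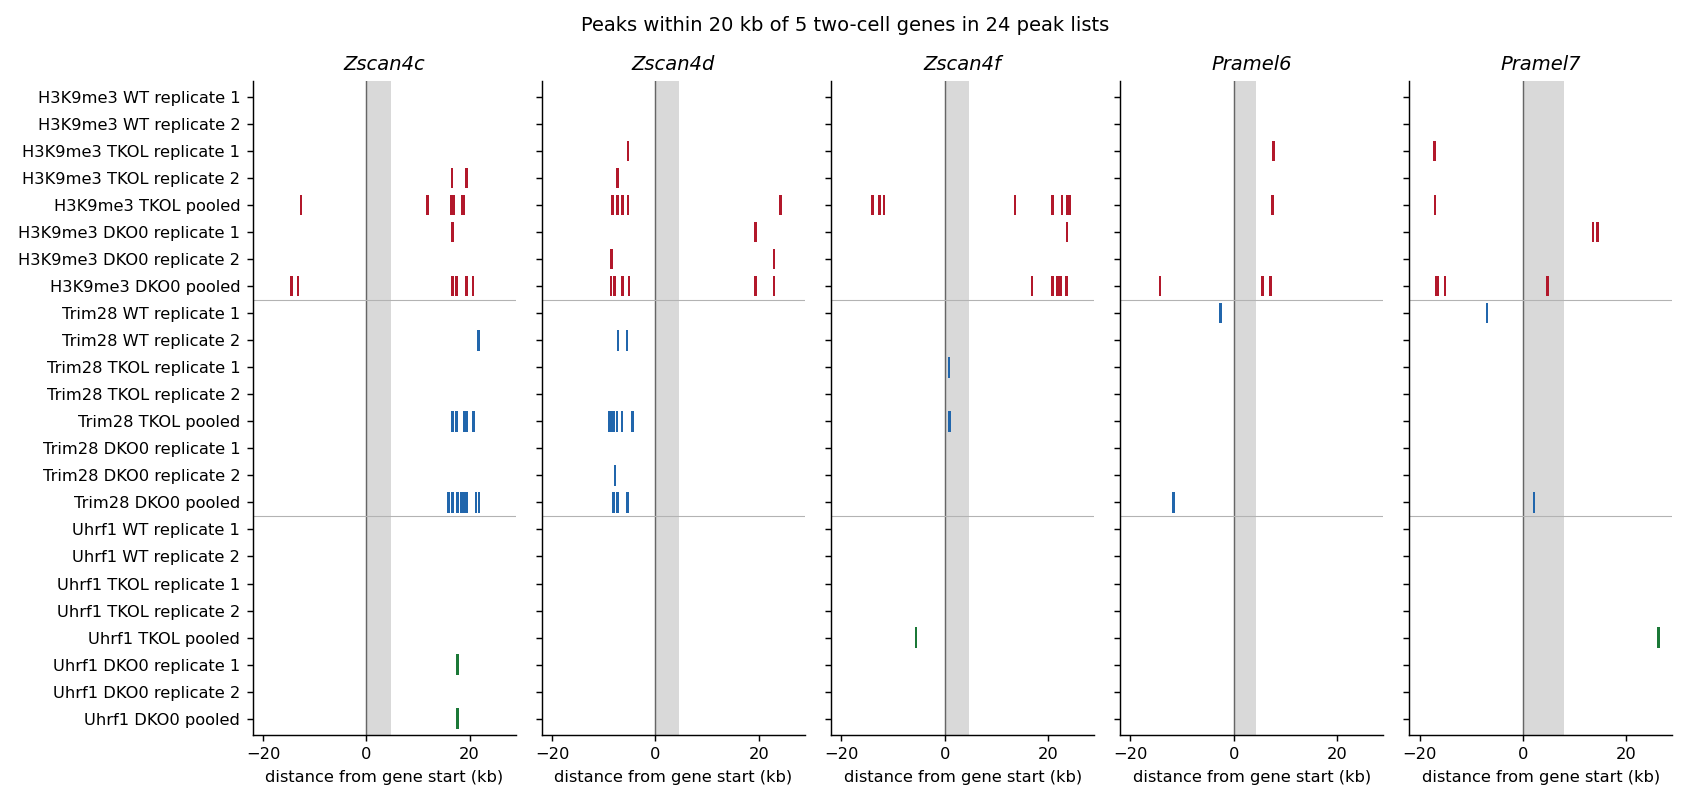
Peaks within 20 kb of the 5 genes, as distance from the gene start in kb along the direction of transcription (horizontal) in each of the 24 lists (vertical). Red bars are H3K9me3 peaks, blue bars Trim28 and green bars Uhrf1, drawn at least 0.5 kb wide, and grey shading is the gene body. H3K9me3 in WT and Uhrf1 in WT have no bar, and the peaks of Zscan4c and Zscan4d crowd into 1 stretch beside each gene.

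Within 20 kb, H3K9me3 peaks were listed in TKOL and DKO0 and not in WT. In WT, 0 of the 5 genes had a peak in either replicate, against 39.3% of all protein-coding genes with a peak in at least 1 replicate and 21.3% with a peak in both. In TKOL, 4 of 5 genes had a peak in at least 1 replicate, against 53.1% of all genes, and in DKO0 4 of 5, against 60.3%. Zscan4d was the only gene with a peak in both replicates, in TKOL (1 of 5 genes, against 27.7% of all genes) and in DKO0 (1 of 5, against 31.8%). These Zscan4d peaks were weak, with -log10 q-values of 1.25 and 1.21 in TKOL replicates 1 and 2. In DKO0 the values were 1.14 in replicate 1, and 1.16 and 1.98 in replicate 2. The lists begin at 1.00.

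At Zscan4d, H3K9me3 peaks covered 0 and 0 bp in the 2 WT replicates, 424 and 180 bp in TKOL and 193 and 360 bp in DKO0. The 4 lists of TKOL and DKO0 were thus all above those of WT, and the ranges of TKOL and DKO0 overlapped. Both TKOL replicates were above both WT replicates at 1 of the 5 genes, Zscan4d, and at 14.2% of all genes. The peaks of the 2 replicates did not lie at the same place. Measured from the gene start along the direction of transcription, with negative values upstream, the peak of TKOL replicate 1 lay from -5.56 to -5.14 kb and that of replicate 2 from -7.47 to -7.29 kb. In DKO0 replicate 1 the peak was 19.3 to 19.5 kb past the start, whereas replicate 2 had one 22.9 to 23.1 kb past it and one from -8.67 to -8.46 kb. The upstream peaks lay on repeated sequence. Their 50-bp words occur 607, 571 and 162 times in mm9 at the median, in the order given, so the place of these peaks is uncertain. No base at any of the 5 genes was under peaks of both replicates, in any mark or line, while 19.3% of all genes had such a base for H3K9me3 in TKOL and 23.2% in DKO0.

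The other 4 genes had H3K9me3 peaks in single lists. Zscan4c was covered over 502 bp in TKOL replicate 2 and 262 bp in DKO0 replicate 1, and over 0 bp in the other replicate of each line. Zscan4f was covered over 108 bp in DKO0 replicate 1 alone. Pramel6 and Pramel7 shared 1 peak of 167 bp in TKOL replicate 1, and Pramel7 had 2 further peaks, together 556 bp, in DKO0 replicate 1. The lists of replicate 1 were the larger ones, with 55126 peaks in TKOL and 63579 in DKO0 against 32702 and 37315 in replicate 2 and 29440 and 25953 in the 2 WT lists. With the 25953 strongest peaks of each list, WT minus TKOL was -251 bp over all windows (exact permutation p = 1.00).

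Summed over the 196 kb of windows, H3K9me3 peaks covered 0 and 0 bp in WT, 591 and 682 bp in TKOL and 1119 and 360 bp in DKO0. The WT lists did not overlap with those of TKOL, and the DKO0 lists lay on both sides of them. WT was lower than TKOL by 636 bp (0 ± 0 against 636 ± 64.3, mean ± SD, n = 2 each), with an exact two-sided permutation p of 0.333 and an adjusted p of 1.00 over 6 comparisons. DKO0 exceeded TKOL by 103 bp (740 ± 537 against 636 ± 64.3, n = 2 each), less than the spread between the DKO0 replicates (exact permutation p = 1.00, adjusted p = 1.00). With 2 lists against 2, p cannot fall below 0.333, so no comparison here could pass a threshold of 0.05. Counted only over bases that begin a 50-bp word found once in mm9, the difference between WT and TKOL shrank to -61.0 bp (exact permutation p = 1.00). It was -83.5 bp with windows of 5 kb and -1642 bp with windows of 50 kb, where WT had peaks too (exact permutation p = 1.00 for each). Without DKO0 replicate 1 the difference between DKO0 and TKOL turned to -276 bp.

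**Figure D2:**
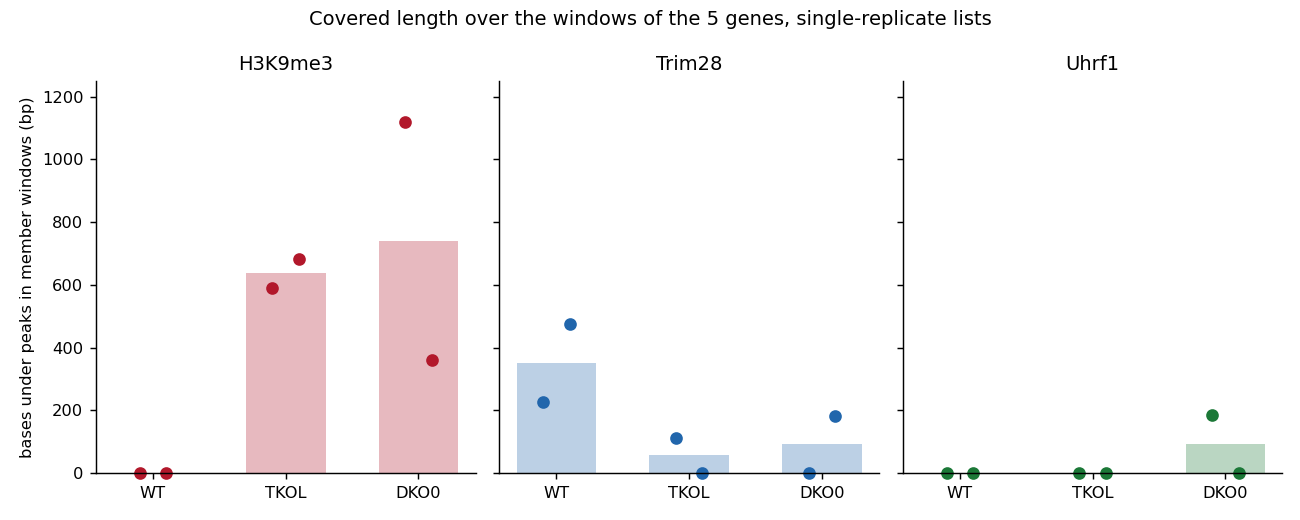
Bases under peaks over the windows of the 5 genes (vertical, bp, each base counted once) in the single-replicate lists of each line, for H3K9me3, Trim28 and Uhrf1. Points are the 2 replicates and bars their mean. H3K9me3 was at 0 in both WT lists and between 360 and 1119 bp in TKOL and DKO0, while 1 of 6 Uhrf1 lists was above 0.

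The pooled lists, called on the reads of both replicates together, held many more H3K9me3 peaks at these genes. All 5 genes had a peak in pooled TKOL (52.1% of all genes) and all 5 in pooled DKO0 (52.8%). There were 19 peaks in each of these lists. They covered 5168 bp in TKOL and 7380 bp in DKO0. The median share of a window covered over the 5 genes was 3.22% in TKOL and 3.36% in DKO0. Over all genes the median was 0.157% and 0.218%, but the shares were skewed, with a mean of 2.44% and 2.85%. The 90th percentile over all genes was 7.85% and 9.22%. The median of the 5 genes thus lay above the mean of all genes and below their 90th percentile. Folds stayed low, from 2.52 to 3.06 in TKOL and from 2.23 to 3.05 in DKO0, and the medians of the whole lists were 2.90 and 2.64. A pooled list counts as 1 list, with no replicate check.

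At each gene, Trim28 peaks of the single-replicate lists came from at most 1 replicate of a line. Of the 5 genes, 4 had a peak in at least 1 WT replicate (52.2% of all genes), 1 in TKOL (48.5%) and 1 in DKO0 (37.3%). No gene had a peak in both replicates of WT, TKOL or DKO0, against 19.3%, 18.1% and 15.0% of all genes. In WT replicate 1, 1 peak of 227 bp lay upstream of both Pramel genes, from -2.62 to -2.40 kb of the start of Pramel6 and from -7.08 to -6.85 kb of that of Pramel7. In WT replicate 2, Zscan4c was covered over 121 bp and Zscan4d over 354 bp. The 2 WT replicates thus marked different genes.

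In TKOL, the only single-replicate Trim28 peak lay in the body of Zscan4f, 0.836 to 0.947 kb past its start, in replicate 1 at a fold enrichment of 3.61. The pooled TKOL list had a peak at nearly the same place, 0.862 to 0.990 kb past the start, at a fold of 2.98. This was the only peak of any list within 1 kb of the start of any of the 5 genes, so 1 of 5 genes had one, against 27.2% of all genes. The stretch shared by both peaks is printed above as Zscan4f, Trim28 in TKOL, holds no CpG and is found whole and identical in the Zscan4c window. Its 50-bp words occur 8 times in mm9 at the median, and 1 of the 8 copies of its central word was under a pooled TKOL Trim28 peak. In DKO0, Zscan4d was covered over 182 bp in replicate 2, at a fold of 4.25.

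Over all windows, Trim28 covered 227 and 475 bp in WT, 112 and 0 bp in TKOL and 0 and 182 bp in DKO0. Both WT lists were above both TKOL lists, and TKOL and DKO0 overlapped. WT exceeded TKOL by 295 bp (351 ± 175 against 56.0 ± 79.2, n = 2 each, exact two-sided permutation p = 0.333, adjusted p = 1.00), the smallest p this design allows. That difference turned to -482 bp with windows of 50 kb. Counted only over bases that begin a 50-bp word found once in mm9, it was 107 bp. The 3 peaks of WT replicate 2 had a -log10 q-value of 1.08 each, and the lists begin at 1.00. Of these peaks, the 2 at Zscan4d held no word found once. DKO0 at 91.0 ± 129 bp and TKOL at 56.0 ± 79.2 bp (n = 2 each) differed by less than the spread between replicates (exact permutation p = 1.00, adjusted p = 1.00), and the pooled lists gave a difference of -435 bp.

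In the pooled Trim28 lists, 3 genes had a peak in TKOL (Zscan4c, Zscan4d and Zscan4f, against 48.7% of all genes) and 4 in DKO0 (Zscan4c, Zscan4d and both Pramel genes, against 48.0%). The 9 peaks of TKOL covered 3922 bp and the 12 of DKO0 covered 3487 bp. The strongest peak at any of the 5 genes was the pooled DKO0 peak 2.15 to 2.25 kb past the start of Pramel7, inside its body, with a fold of 4.89 and a -log10 q-value of 4.39. It was 100 bp long, and its 50-bp words occur 248 times in mm9 at the median.

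Uhrf1 was nearly without peaks at these genes. None of the 5 genes had a peak in either WT replicate or in either TKOL replicate, against 52.9% and 42.8% of all genes with a peak in at least 1. In DKO0, 1 of 5 had a peak in at least 1 replicate, against 38.6%. No gene had a peak in both replicates in WT, TKOL or DKO0 (29.6%, 15.8% and 13.2% of all genes). The Uhrf1 peak of DKO0 replicate 1 lay 17.6 to 17.7 kb past the start of Zscan4c, covered 186 bp and had a fold of 3.63.

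Covered lengths for Uhrf1 were 0 bp in 5 of the 6 single-replicate lists and 186 bp in the sixth, DKO0 replicate 1. DKO0 and TKOL differed by 93.0 bp (93.0 ± 132 against 0 ± 0, n = 2 each, exact two-sided permutation p = 1.00, adjusted p = 1.00), and without DKO0 replicate 1 by 0 bp. WT and TKOL were both at 0 (difference 0 bp, exact permutation p = 1.00, adjusted p = 1.00). In the pooled lists, 2 genes had a peak in TKOL (Zscan4f and Pramel7, against 50.4% of all genes) and 1 in DKO0 (Zscan4c, against 52.7%). The TKOL peaks lay from -5.61 to -5.48 kb of the start of Zscan4f and 26.2 to 26.3 kb past that of Pramel7, the latter past the end of the gene. The 6 single-replicate Uhrf1 lists held 0 peaks at Pramel7, as at Pramel6, Zscan4d and Zscan4f.

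Peaks of all 3 marks met on the same bases at 1 of the 5 genes. In the pooled DKO0 lists, H3K9me3, Trim28 and Uhrf1 shared 122 bases 17.6 to 17.7 kb past the start of Zscan4c, where 8.44% of all genes had such a stretch. In the pooled TKOL lists 0 of 5 genes had one, against 9.89% of all genes. The Zscan4c stretch covered by the most lists lay 16.6 to 16.8 kb past the start and was under H3K9me3 peaks of TKOL replicate 2, DKO0 replicate 1 and both pooled lists and under both pooled Trim28 lists. It was not under a peak in both replicates of one line.

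The peaks at Zscan4c and Zscan4d lay on repeated sequence. To see how far a window can be told apart from the rest of the genome, the copies of each 50-bp word in mm9 were counted on both strands. Of the words of the Pramel6 and Pramel7 windows 92.6% and 95.0% were found once. At Zscan4d it was 55.4%, at Zscan4c 16.6% and at Zscan4f 14.0%. A read of 50 bp from most of the Zscan4c or Zscan4f window would fit other places in the genome equally well. A read aligner such as BWA would then place it at one of them. Longer reads or read pairs could be placed in more of a window, and the length of the reads was not analysed here.

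The Zscan4 windows are copies of one another. Over alignments of at least 500 bp and 90% identity, the Zscan4c and Zscan4f windows aligned over 81.4% of their length at 98.6% identity, in 1 stretch of up to 35.8 kb. Their gene bodies aligned over 100% at 99.3%. Zscan4d aligned with Zscan4c over 76.2% of its window at 94.9% identity. The bodies of the 2 Pramel genes did not align with each other under these limits. Peaks in the aligned parts of the Zscan4 windows are therefore uncertain as to which gene they belong to, and those of the Pramel genes much less so. Of the 29 peaks of the Zscan4c window, 25 lay in a repeated block, described next, that Zscan4d also has and Zscan4f lacks. For these the doubt concerns Zscan4d and the other copies of the block in the genome.

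Beside Zscan4c and Zscan4d lay a block in which words with at least 100 copies follow one another with gaps of at most 200 bp. The block at Zscan4c was 6.39 kb long (chr7:11606879-11613264, 15.8 to 22.2 kb past the gene start), with 408 copies of a word at the median. The block at Zscan4d was 6.35 kb long (chr7:11755294-11761645, from -10.1 to -3.80 kb of the gene start), with 437 copies. Both begin and end with the same 407 bp in the same direction, at 100% identity within the Zscan4c block and 99.5% within the Zscan4d block. The 2 blocks aligned with each other at 98.6% identity over 5148 bp and 97.9% over a further 1169 bp. Repeats at both ends in the same direction are the layout of an inserted retrovirus-like element. Which family the blocks belong to was not analysed here.

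Of the 29 peaks in the Zscan4c window, 25 lay in its block, 10 of H3K9me3, 13 of Trim28 and 2 of Uhrf1, and these included all 5 from single-replicate lists. Of the 26 in the Zscan4d window, 21 lay in its block, 11 of H3K9me3 and 10 of Trim28, among them 6 of the 8 from single-replicate lists. Words with at least 100 copies made up 11.3% of the Zscan4c window and 68.5% of its bases under any peak. For Zscan4d the shares were 11.5% and 73.0%. At Zscan4f, which has no such block, they were 2.65% and 7.16%, where 2 of its 16 peaks lay on words with 11292 and 6606 copies at the median and the rest on words with 2 to 9. At Pramel6 and Pramel7, 80.6% and 85.6% of the bases under any peak began a word found once. The exception among their peaks was the pooled DKO0 Trim28 peak in the body of Pramel7 described above, with no word found once.

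**Figure D3:**
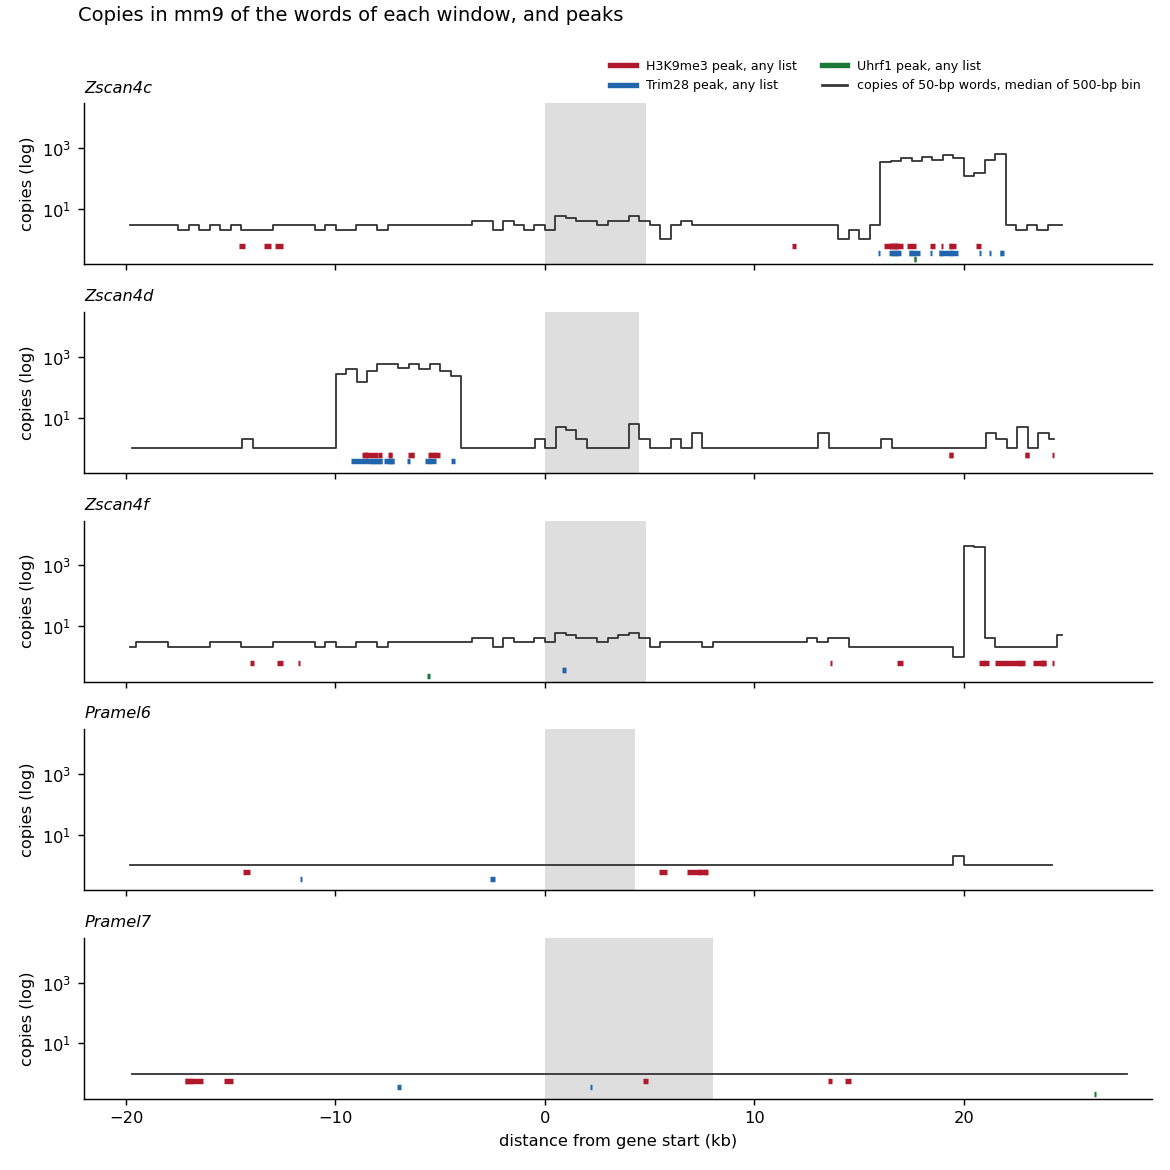
Copies in mm9 of the 50-bp words of each window (black line, median of 500-bp bins, log axis) against distance from the gene start in kb, with peaks of any of the 24 lists below it in red for H3K9me3, blue for Trim28 and green for Uhrf1. Grey shading is the gene body. Most peaks of Zscan4c and Zscan4d lie under the raised blocks of 6.39 and 6.35 kb, while 6 of 7 peaks of Pramel6 and 9 of 10 of Pramel7 lie on words found once at the median.

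A word of the Zscan4c block was then looked up in its other copies. The central 50-bp word of the 6-list stretch at Zscan4c occurs 579 times on the main chromosomes, and 279 of the copies (48.2%) were under a pooled H3K9me3 peak in TKOL and 144 (24.9%) in DKO0. For Trim28 it was 349 (60.3%) in TKOL and 292 (50.4%) in DKO0, and for Uhrf1 0 in TKOL and 1 in DKO0. Fewer copies were under a peak in DKO0 than in TKOL for both H3K9me3 and Trim28, in lists with no replicates. The stretch was chosen because it lay under the most lists, so its word need not stand for the block. The central word of the stretch shared by all 3 marks, in the same block, had 8 copies on the main chromosomes. In TKOL, 0 of them were under H3K9me3 or Trim28 peaks. In DKO0, 1 was under an H3K9me3 peak and 2 under Trim28 peaks. The pooled H3K9me3 list of DKO0 held fewer peaks (92462 against 104618 in TKOL) but covered more bases, 85.3 Mb, than that of TKOL. The pooled Trim28 lists held 56161 peaks over 32.8 Mb in TKOL and 62621 over 28.7 Mb in DKO0. As reads of the copies can be exchanged between them, the copies are not separate measurements.

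No region of the study's list of 1515 high-confidence DMRs lay in any of the 5 windows. These DMRs are stretches where DKO0 at passage 15 gained methylation over TKOL. The study called them only where enough CpGs were covered. The windows of the 5 genes hold 0.529 to 0.700 CpGs per 100 bases, against 0.829 in mm9. How much of these windows could be called at all was not analysed here. The DKO0 peak lists came from earlier cells, by their names at passage 5 for H3K9me3 and Trim28 and at passage 3 for Uhrf1. In all, 3.22% of all protein-coding genes have one within 20 kb. All 5 genes had one within 100 kb, as did 10.7% of all protein-coding genes. The nearest DMR was 36.2 kb from Zscan4d, 78.4 kb from Zscan4f, 94.8 kb from Zscan4c, 84.5 kb from Pramel6 and 98.2 kb from Pramel7, which share theirs. Between 5.16% and 11.1% of all protein-coding genes with a DMR on their chromosome lie as near or nearer. The median of the 5 genes was 84.5 kb, and that of all 21418 such genes was 729 kb. The windows nevertheless share some sequence with DMRs elsewhere. Words of 31 bp that also occur in a DMR made up 2.82% (Pramel7) to 5.38% (Zscan4f) of a window, and from 0% to 100% of a single peak.

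**Figure D4:**
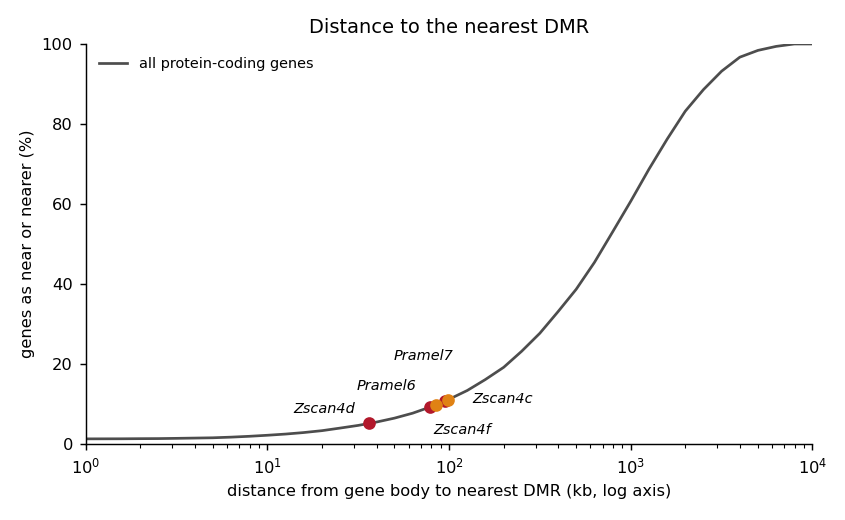
Share of protein-coding genes (vertical, %) whose body lies within a given distance of a DMR (horizontal, kb, log axis). The line is all 21418 genes with a DMR on their chromosome, red points are Zscan4 genes and orange points Pramel genes. The 5 genes lie between 36.2 and 98.2 kb, where the line is between 5.16% and 11.1%.

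Unlike the genes, 2 of the 4 DMRs nearest to them were under peaks of nearly every list. The study reports that most of its DMRs overlap H3K9me3 peaks in TKOL and DKO0, and that Trim28 and Uhrf1 are enriched there. Cover by these marks is thus not particular to these 2 DMRs. The share of all DMRs under as many lists was not analysed here. The DMR nearest to the Pramel genes had a peak in all 24 lists, with folds from 2.71 to 9.28, the highest in pooled DKO0 Trim28. The DMR nearest to Zscan4c had one in 21 of 24 lists, with a fold of 19.4 in the same list, and it was without Uhrf1 peaks in TKOL replicate 2 and both DKO0 replicates. The stretches of these DMRs that lie under at least 18 lists are given for comparison with those at the genes.
DMR nearest to Zscan4c (chr7:11496051-11496250, plus strand): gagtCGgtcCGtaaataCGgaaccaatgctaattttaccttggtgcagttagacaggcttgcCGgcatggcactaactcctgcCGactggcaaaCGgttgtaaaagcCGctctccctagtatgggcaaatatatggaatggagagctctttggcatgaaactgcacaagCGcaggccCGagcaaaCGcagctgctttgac
DMR nearest to Pramel6 and Pramel7 (chr2:87436007-87436289, plus strand): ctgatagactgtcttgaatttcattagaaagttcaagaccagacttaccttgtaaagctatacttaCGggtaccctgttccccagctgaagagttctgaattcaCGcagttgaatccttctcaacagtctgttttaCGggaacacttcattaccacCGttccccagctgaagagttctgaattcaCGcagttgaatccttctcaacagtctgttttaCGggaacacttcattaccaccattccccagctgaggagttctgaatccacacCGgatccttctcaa
They held 5.00 and 2.47 CpGs per 100 bases. Their 50-bp words were repeated too, with 384 and 172 copies at the median. The central word of the first had 378 copies on the main chromosomes, and all 378 were under pooled H3K9me3 and Trim28 peaks in TKOL and in DKO0, while 139 (36.8%) and 149 (39.4%) were under Uhrf1 peaks in TKOL and DKO0. Of the 173 copies for the second, 152 and 159 were under H3K9me3 peaks in TKOL and DKO0, 172 and 165 under Trim28 peaks, and 162 and 154 under Uhrf1 peaks.

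The remaining 2 DMRs were less covered. The DMR nearest to Zscan4f had peaks in 7 lists, 6 of H3K9me3 and 1 of Trim28, with a highest fold of 6.66. Both WT replicates were among them. The DMR nearest to Zscan4d had peaks in 3 lists, all of H3K9me3, with a highest fold of 2.98, and 67.9% of its words were found once.

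The DMR nearest to Zscan4c lies 4.85 kb from Zscan4b, another gene of the cluster that is not among the 5. Zscan4b (chr7:11486098-11490399, minus strand) aligned over 89.6% of the Zscan4c body at 96.0% identity and is 101 kb from it. Its window had a peak in 17 of the 18 single-replicate lists. H3K9me3 covered 1508 and 955 bp in WT, 2837 and 1578 bp in TKOL and 3665 and 1758 bp in DKO0, where Zscan4c, Zscan4d and Zscan4f had at most 502 bp in any single-replicate list. Trim28 covered 667 and 574 bp in WT, 1761 and 908 bp in TKOL and 918 and 745 bp in DKO0. Uhrf1 covered 1188 and 1732 bp in WT and 101 to 329 bp in 3 of the 4 lists of TKOL and DKO0, with 0 bp in DKO0 replicate 2. In all 17 lists with a peak at Zscan4b, it was above Zscan4c, Zscan4d and Zscan4f. The Zscan4b window is repeated sequence as well, with 17.9% of its 50-bp words found once. It also holds the DMR, which made up part of its covered length. For H3K9me3 in DKO0 replicate 1, 1000 of the 3665 bp lay in that DMR.

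**Figure D5:**
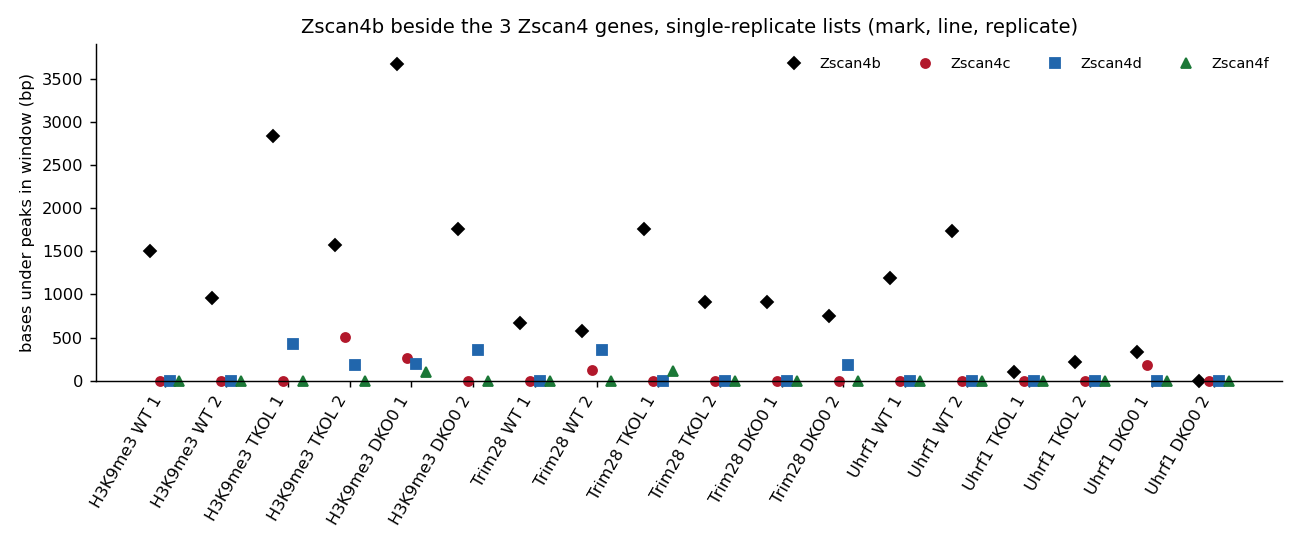
Bases under peaks (vertical, bp) in the windows of Zscan4b (black diamonds), Zscan4c (red circles), Zscan4d (blue squares) and Zscan4f (green triangles) in the 18 single-replicate lists (horizontal, mark, line and replicate). Zscan4b reached 3665 bp and was above the other genes in 17 lists, and Zscan4c, Zscan4d and Zscan4f stayed at or below 502 bp.

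Other two-cell genes were examined in the same way. Of 35 symbols, 25 are in the annotation and 10 are not. The median over the 25 of the share of a window under H3K9me3 peaks, averaged over the 6 single-replicate lists, was 0.380%, against 0.251% over the 5 genes and 0.111% over all protein-coding genes. H3K9me3 peaks in both replicates were found at 7 of 25 in WT, 10 in TKOL and 11 in DKO0, against 21.3%, 27.7% and 31.8% of all protein-coding genes. For Trim28 it was 7, 6 and 4 of 25, against 19.3%, 18.1% and 15.0%, and for Uhrf1 7, 8 and 5, against 29.6%, 15.8% and 13.2%. A DMR lay within 20 kb of 2 of them, against 3.22% of all genes, and their median distance was 179 kb.

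The 4 with the highest H3K9me3 share were Sp110 at 5.24%, Zscan4b at 4.63%, Arg2, which encodes a mitochondrial arginase, at 2.32% and Gm4027 at 1.54%. Arg2 had a peak of some mark in all 18 single-replicate lists. The 4 lowest were Dub1, Dub1a and Tdpoz4, each at 0%, and Ubtfl1 at 0.0839%. Among the 5 genes the order was Zscan4d at 0.433%, Zscan4c at 0.284%, Pramel7 at 0.251%, Pramel6 at 0.0628% and Zscan4f at 0.0402%, and 35.5% to 73.1% of all protein-coding genes were at or below these values. The SD over the 6 lists was 0.397 for Zscan4d, 0.472 for Zscan4c, 0.466 for Pramel7, 0.154 for Pramel6 and 0.0984 for Zscan4f (n = 6 lists of 3 lines), in percentage points. Each step between neighbours in this order was smaller than the larger SD of the pair, and no test of the order was made.

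Genes with a like pattern were sought among 9951 protein-coding genes covered in at least 6 of the 18 single-replicate lists. The mean covered share of the Zscan4 windows was above 0 in 8 lists, and the genes closest to it by Spearman correlation across lists were Ccdc70 (rho = 0.945), Vps54 (0.877) and Nccrp1 (0.868). For the Pramel windows, above 0 in 3 lists, they were Pkn2, Znrd1as and Znrd1 (0.774 each). The last 2 are neighbours on chromosome 17. The 18 points share marks, lines and list sizes, and with so few lists above 0 the values describe only which lists held a peak.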

How the data were processed

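H3K9me3 and Trim28 ChIP-seq and Uhrf1-FLAG ChIPmentation peaks from WT, TKOL and DKO0 ESCs were analysed, with 2 replicates per mark and line. Per the study's methods and the submitters' processing notes, the authors used BWA mem for alignment to mm9, GATK for duplicate removal and MACS2 for peak calling. How reads with several equal alignments were treated is not given in the sources used here. The deposited lists give the fold (a ratio to the MACS2 background) and -log10 q-value of every peak, and the -log10 p-value was used only to pick equal numbers of peaks. The authors pooled replicates on read level for the 6 pooled lists. Peaks with a -log10 q-value from 1.00 are listed, and no read counts are given, so depth is unknown and no interval was computed.

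Windows of 20 kb on either side of GENCODE vM1 gene bodies were intersected with the lists at an overlap of at least 1 bp. Overlaps were checked with bedtools 2.31.1, and 0 of 24 lists differed. Covered lengths were tested on 400 simulated windows, of which 0 were wrong. Lines were compared by exact two-sided permutation tests with Benjamini-Hochberg adjustment over 6 comparisons. Words of 50 bp were counted in mm9 on both strands, and windows were aligned with blastn 2.17.0. The DMRs are the study's complete list of 1515 high-confidence regions, of which only positions were used.

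The genes, the other lists and the tests were chosen with earlier results of these data known. All 5 genes in the annotation are named. The other named genes are the 3 most like each gene family by Spearman correlation, the 4 highest and 4 lowest other two-cell genes by H3K9me3 share, and Zscan4b, whose values by list were added after they were seen. The blocks of repeated words, and the comparison with genes of at most 10 kb, were also chosen after the data were seen. Alternatives were windows of 5 and 50 kb, gene bodies alone, a minimum -log10 q-value of 5, equal numbers of peaks per list, covered length relative to the covered length of the list, unique words only, pooled lists, each replicate left out and a replicate block. Hairpin, WGBS, MeDIP-seq and Nanopore data and the input libraries were not used here. Intersections, tests and plots were made with scipy 1.17.1, numpy 2.4.6 and matplotlib 3.10.9 under Python 3.11.15. 1 sequence at Zscan4d is not reported here.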

Additional observations from a re-analysis of the deposited data

How the results depend on the processing

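The peak lists hold no read counts, so a gene without the mark and a gene with too few reads cannot be told apart, and most values rest on 1 list. Of 53 alternative values for the differences between lines that were not 0, the replicate block left out, 33 kept their direction, 11 reversed and 9 went to 0. The cause was not tested.

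For H3K9me3, DKO0 minus TKOL reversed to -83.5 bp with windows of 5 kb, -144 bp with equal numbers of peaks and -15.9 bp per covered Mb of the list. For Trim28, DKO0 minus TKOL reversed to -56.0 bp at 5 kb, -865 bp at 50 kb and -435 bp in pooled lists, and WT minus TKOL to -482 bp at 50 kb. For Uhrf1, DKO0 minus TKOL reversed to -105 bp in pooled lists and was 0 at 5 kb, and WT minus TKOL was 1412 bp at 50 kb, with an exact permutation p of 0.333. Every H3K9me3, Trim28 and Uhrf1 difference was 0 with a minimum -log10 q-value of 5, where no peak remained. With unique words only, DKO0 minus TKOL was 0 for Trim28 and Uhrf1.

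With 1 replicate left out at a time, DKO0 minus TKOL ranged from -276 to 482 bp for H3K9me3, from -56.0 (without DKO0 replicate 2) through -21.0 (without TKOL replicate 2) to 126 bp for Trim28 and from 0 to 186 bp for Uhrf1. WT minus TKOL ranged from -682 to -591 bp for H3K9me3 and from 171 to 419 bp for Trim28, and was 0 throughout for Uhrf1.

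Same-numbered replicates share only a number. With a replicate block, the differences were unchanged by construction, at 103 bp (H3K9me3) and 93.0 bp (Uhrf1) for DKO0 minus TKOL and -636, 295 and 0 bp (H3K9me3, Trim28, Uhrf1) for WT minus TKOL, and the exact sign-flip p was 0.500 for the H3K9me3 and Trim28 differences between WT and TKOL and 1.00 for the others. With 2 pairs it cannot fall below 0.5.

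Genes with a peak in both replicates moved with the window. For H3K9me3 there were 2, 3 and 3 of 5 at 50 kb in WT, TKOL and DKO0, against 38.3%, 48.8% and 53.6% of all protein-coding genes. In TKOL and DKO0 there were 0 at 5 kb, in gene bodies alone, with a minimum -log10 q-value of 5 and with equal numbers of peaks. At 50 kb there were 2, 1 and 1 for Trim28 (37.9%, 34.3% and 28.7% of all genes) and 2, 1 and 1 for Uhrf1 (48.3%, 29.3% and 25.1%). With 1 replicate alone the count ranged, for H3K9me3, from 0 to 0 in WT, 2 to 3 in TKOL and 1 to 4 in DKO0, for Trim28 from 2 to 2, 0 to 1 and 0 to 1, and for Uhrf1 from 0 to 0, 0 to 0 and 0 to 1. A DMR lay within 50 kb of 1 gene (6.21% of all genes) and within 100 kb of 5 (10.7%). Over the 8861 protein-coding genes with a body of at most 10 kb, a comparison added after the data were seen, the share with a peak in both replicates in WT, TKOL and DKO0 was 16.4%, 21.5% and 25.0% for H3K9me3, 12.2%, 12.9% and 9.85% for Trim28 and 17.7%, 9.84% and 8.76% for Uhrf1.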

Other observations

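Genes active in ESCs were set beside the two-cell genes. Of 20 pluripotency genes, 19 are in the annotation, and the median share of their windows under H3K9me3 peaks was 0.0667%. Zfp42, a zinc finger gene used as a marker of undifferentiated cells, had the highest share at 2.13% and a peak of some mark in 15 of 18 single-replicate lists. Pou5f1, which encodes the transcription factor Oct4, had a share of 0% and a peak of Trim28 or Uhrf1 in 3 lists, and Sox2 had 0% and 6 lists. These 3 genes were chosen after their values were seen. Peaks in both replicates were found for H3K9me3 at 2 of 19 genes in WT, 4 in TKOL and 5 in DKO0, against 21.3%, 27.7% and 31.8% of all protein-coding genes. For Trim28 it was 0, 5 and 2 (19.3%, 18.1% and 15.0% of all genes), and for Uhrf1 4, 6 and 6 (29.6%, 15.8% and 13.2%). The median distance of these genes to a DMR was 997 kb, and 0 had one within 20 kb, against 3.22% of all genes.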
